A study of Rattus norvegicus with 6 samples.

Results

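The genes described here are 9 markers of B cells and plasma cells in rat lung, namely Cd79a, Cd79b, Ms4a1, Pax5, Jchain, Mzb1, Irf4, Prdm1 and Pou2af1. They were chosen as known markers of these cells and taken from the deposited transcript table by gene name. Of the 9 names, 8 are in the table with 19 transcripts, out of 21655 named genes and 70376 transcripts. No row carries the name Cd79a. A locus listed as AABR07002700.1 is described in the table as the CD79a molecule under an NCBI gene number that RefSeq names Cd79a, so it is given beside the 8 as Cd79a and is not counted among them.

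The lungs came from Sprague–Dawley rats that were 7 weeks old before treatment and whose sex the labels do not state. The 3 PF (pulmonary fibrosis) model rats received a single intratracheal dose of bleomycin at 7 mg/kg, a drug that injures the lung epithelium and is followed by scarring, and the 3 control rats received saline. Lungs were taken on day 28, and 1 library depleted of rRNA was made per rat from whole tissue. The question for these genes is whether RNA of B cells and plasma cells differed between fibrotic and control lungs.

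B cells are lymphocytes that carry an antibody molecule on their surface as antigen receptor, and plasma cells are their descendants that secrete antibody in bulk. Pax5 holds the B cell programme, whereas Irf4 and Prdm1 (Blimp-1) switch it off and turn on the secretory state, during which Pax5 and Ms4a1 fall and Jchain and Mzb1 rise. In the lung, B cells gather in lymphoid clusters beside the airways, and plasma cells beneath the airway lining secrete IgA that is carried into the lumen.

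By total estimated reads (deposited coverage times transcript length over the read length of 150), the libraries had between 35778631 and 41112682 reads in the control and between 36699504 and 40877901 in the PF model group. These totals count only reads assigned to the listed transcripts, not all reads sequenced. The lung tissue markers Sftpc, Sftpb, Sftpa1, Scgb1a1 and Ager were at least 272.848 FPKM in every library, and the log2 levels of any pair of libraries correlated across genes at r between 0.961 and 0.974. The members were covered by few reads: 45.6 to 113 per library for Mzb1, 76.4 to 167 for Ms4a1 and 599.787 to 1216 for Jchain, the last being the most. FPKM is fragments scaled to transcript length and library size, so levels of different genes can be set side by side. A difference between groups is given as PF model minus control on the log2(FPKM + 1) scale, tested with limma, and this scale understates changes, the more so the lower the gene.

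The RefSeq (GRCr8) promoter table used here holds Cd79a and 3 of the 8 members (Jchain, Irf4 and Prdm1). B cell and antibody promoters are known for the octamer ATGCAAAT, the site that Pou2af1 recognises together with Oct factors, so the 250 bases before the start of these 4 genes were searched on both strands. None of the 4 held the octamer, which 1.56% of 33469 promoters of that length hold, as do 2 of the 19 promoters of other B cell genes in the table (10.5%). Its last 7 letters, TGCAAAT, a search added after the sequences had been seen, were found in 2 of the 4, in 2 of the same 19 and in 3.54% of all promoters, a set that includes every promoter with the full octamer. Those 2 are shown because they hold the near match, in capitals and here on the opposite strand. The first lies at chr14:19822726-19822975 on the plus strand and the second at chr20:49564089-49564338 on the minus strand, and each runs 5′ to 3′ up to the last base before the gene's start.
Jchain: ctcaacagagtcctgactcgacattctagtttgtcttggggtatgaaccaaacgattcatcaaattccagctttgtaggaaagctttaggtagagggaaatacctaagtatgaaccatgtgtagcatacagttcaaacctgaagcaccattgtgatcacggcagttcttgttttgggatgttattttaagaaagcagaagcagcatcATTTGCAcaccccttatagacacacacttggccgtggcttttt
Prdm1: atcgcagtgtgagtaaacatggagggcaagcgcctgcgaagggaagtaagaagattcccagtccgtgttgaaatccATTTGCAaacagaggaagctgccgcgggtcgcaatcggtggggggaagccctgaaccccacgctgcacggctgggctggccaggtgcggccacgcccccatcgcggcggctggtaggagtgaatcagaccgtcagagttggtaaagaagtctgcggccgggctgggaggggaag
The near match ended 36 bases before the start of Jchain and 167 bases before that of Prdm1. A match of letters is a description of the sequence only.

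No difference between PF model and control lungs was detected for any of the 8 members. With limma, 0 of 8 had an unadjusted p of at most 0.05, where 4.91% of the 19645 genes tested did, and 0 of 8 passed p and a fold of means of at least 1 log2 unit, where 1.52% did. At a Benjamini-Hochberg adjusted p below 0.05 the count was 0 of 8, against 0.0102% of genes, and the smallest adjusted p of a member was 0.933. In 0 of 8 were the 3 PF model libraries all above or all below the 3 control libraries, where 10.7% of genes had groups that did not overlap. The differences ran from −0.25 to 0.24 with a median of −0.038, beside −0.0072 over all genes tested, with 2 members higher and 6 lower. The 95% intervals of all 8 lay between 0.546-fold and 1.76-fold on this scale, and between 0.517-fold and 2.34-fold with log2(FPKM + 0.1), where Mzb1 was 0.38, Ms4a1 −0.12 and Irf4 −0.0996 and still 0 of 8 passed the unadjusted p. Of the 19 transcripts taken singly, 0 had an unadjusted p of at most 0.05, beside 4.53% of the 64867 transcripts tested, and 0 passed p and fold, beside 2.98%. An exact permutation test of 3 rats against 3 cannot go below p = 0.1, and no member reached that. In whole tissue, fewer cells of a type and less RNA per cell cannot be told apart.

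**Figure D1:**
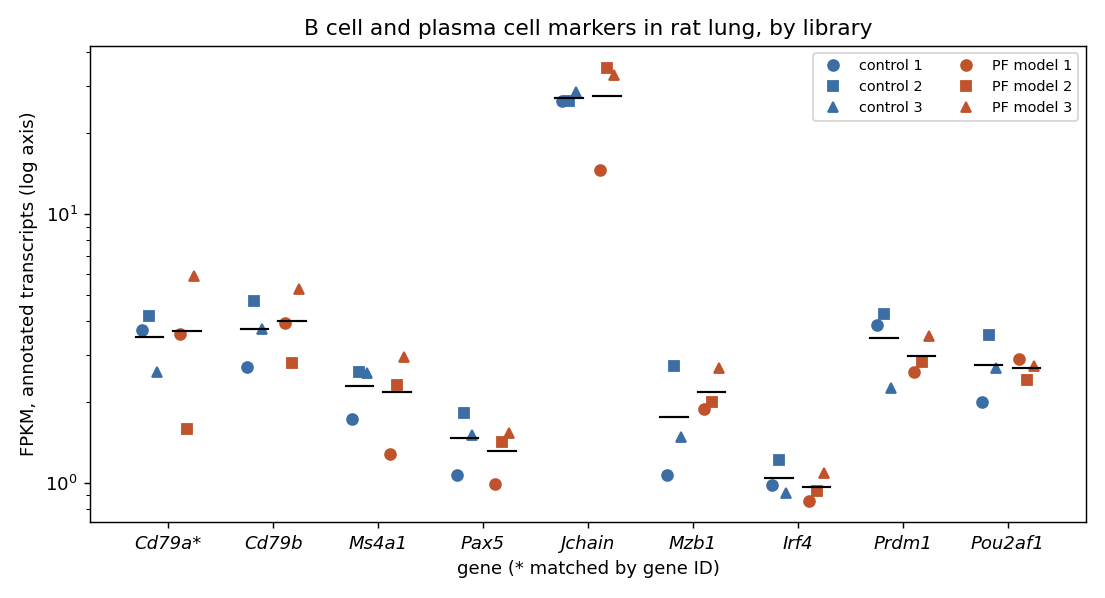
FPKM of the annotated transcripts of each member (log axis) in the 3 control (blue) and 3 PF model (orange) libraries, with marker shape for the replicate and a black bar for the group mean. The groups overlap for every gene, and Jchain, at 14.6 to 35.1 FPKM, lies above all the others.

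Cd79a and Cd79b encode the paired signalling chains of the B cell receptor. For Cd79b on chromosome 10 (94497448 to 94500591, minus strand, in the build of the files, which is not given in the sources used here), the 6 exons gave 2.71, 4.74 and 3.74 FPKM in the control and 3.93, 2.79 and 5.29 FPKM in the PF model libraries. The lowest library was a control and the highest a PF model one, and the groups overlapped. The means were 3.73 ± 1.01 and 4.004 ± 1.25 (SD, n = 3 each), a difference of 0.073 (SE 0.24, limma adjusted p = 0.989).

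For Cd79a (81763614 to 81767980 on chromosome 1, plus strand), the sum of its annotated transcript of 1013 nt and an assembled one of 937 nt was 4.22, 5.48 and 3.71 FPKM in control and 4.39, 2.66 and 7.98 FPKM in PF model libraries. Both the lowest and the highest value were in the PF model group, 3.00-fold apart. The difference was 0.050 (SE 0.33, limma adjusted p = 0.995), and −0.033 with the annotated transcript alone. The table also lists Cd79al, a Cd79a-like locus on chromosome 9 whose name RefSeq gives as a synonym of Cd79a. It gave 1.31, 0 and 4.36 FPKM in control and 3.78, 5.99 and 4.69 FPKM in PF model libraries, with 1 control inside the PF model range. Its difference was 1.31 (SE 0.58, limma p = 0.0597, adjusted p = 0.933, exact permutation p = 0.2). Without control replicate 3 it was 1.92 and passed an unadjusted p of 0.05 (limma adjusted p = 0.999887), and without control replicate 2, listed at 0, it was 0.71. How alike the sequences of Cd79al and Cd79a are was not tested. Reads of close copies could be split between them by the mapping, and neither value is certain.

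Ms4a1 encodes CD20, a surface protein of mature B cells that plasma cells lack. Its single transcript (chromosome 1, 227429596 to 227441442, 7 exons) had 1.72, 2.59 and 2.56 FPKM in control and 1.28, 2.33 and 2.94 FPKM in PF model libraries. PF model replicate 1 was the lowest and PF model replicate 3 the highest of all 6. The means of 2.29 ± 0.492 and 2.18 ± 0.841 (SD, n = 3 each) differed by −0.074 (SE 0.24, limma adjusted p = 0.988).

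Pax5, the transcription factor that holds B cell identity, was spread over 7 rows of the table, which summed to 5.49, 11.8 and 8.56 FPKM in control and 6.12, 6.10 and 9.18 FPKM in PF model libraries. Most of this sum was not the spliced mRNA. The annotated transcript of 14 exons (chromosome 5, 60007587 to 60191941, minus strand) held between 15.3% and 23.4% of it, and 4 unspliced assembled fragments inside introns held between 38.3% and 61.5%. The annotated transcript alone gave 1.07, 1.82 and 1.51 FPKM in control and 0.991, 1.42 and 1.54 FPKM in PF model libraries, so its order of libraries was not that of the sum. The summed difference was −0.21 (SE 0.28, limma adjusted p = 0.948). It was −0.086 with the annotated transcript and 0.17 with the annotated and the spliced assembled transcript together, a choice made after the rows had been seen. The assembled spliced transcript of 531 nt reached 1.95 FPKM in PF model replicate 3 and lay between 0.148 and 0.776 FPKM in the other libraries.

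Pou2af1 encodes OBF-1, the B cell coactivator of octamer factors. Its transcript (chromosome 8, 55603968 to 55631446, 5 exons) gave 1.995, 3.55 and 2.69 FPKM in control and 2.89, 2.41 and 2.73 FPKM in PF model libraries. All 3 PF model values lay inside the control range. The difference was −0.0073 (SE 0.18, limma adjusted p = 0.999622), with the interval of the fold from 0.738 to 1.34.

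Irf4, needed at the plasma cell step and also used by activated T cells and macrophages, was the lowest and the most even of the members. Its sum was 0.98, 1.22 and 0.922 FPKM in control and 0.86, 0.935 and 1.09 FPKM in PF model libraries. The library highest and the library lowest differed 1.42-fold, and the difference between groups was −0.055 (SE 0.10, limma adjusted p = 0.967). The sum came from 2 annotated isoforms with their starts apart on chromosome 17 (34886739 to 34903862 with 8 exons, and 34886746 to 34905117 with 9 exons, minus strand). The first had 0.98, 0.615 and 0.0531 FPKM in control and 0.86, 0.0124 and 1.09 FPKM in PF model libraries, and the second 0, 0.607 and 0.869 FPKM and 0, 0.923 and 0 FPKM. Each isoform was thus nearly the whole of the gene in some libraries and listed at or near 0 in others, in both groups. The share of the first differed by 15.1 percentage points between groups (exact permutation p = 1, two-sided), with an SD of 47.1 in the control and 57.0 in the PF model group. The isoforms are 4779 and 4803 nt long and overlap in position, and how the estimate divided reads between them was not tested.

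Prdm1 encodes Blimp-1, the repressor that ends the B cell programme. Its 4 rows summed to 6.67, 10.6 and 8.10 FPKM in control and 6.95, 5.57 and 8.12 FPKM in PF model libraries. An unspliced fragment of 208 nt inside an intron held between 42.2% and 72.1% of this sum. The 3 annotated isoforms together gave 3.86, 4.26 and 2.26 FPKM in control and 2.58, 2.82 and 3.52 FPKM in PF model libraries, and here control replicate 3, in the middle by the sum, was the lowest of the 6. Of these isoforms the one of 7 exons (chromosome 20, 49464919 to 49486550, minus strand) carried 1.88 to 3.72 FPKM. The isoform of 4 exons that starts farther upstream carried 0.108 to 0.772 FPKM, and the remaining one no more than 0.0267 FPKM. The summed difference of −0.25 was the lowest of the 8 members (SE 0.19, limma p = 0.231, adjusted p = 0.933, exact permutation p = 0.5), and with the annotated isoforms it was −0.14 (SE 0.22). Without control replicate 1 the summed difference was −0.39, when that of Pax5, at −0.47, was lower still, and without control replicate 2 it was −0.097.

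**Figure D2:**
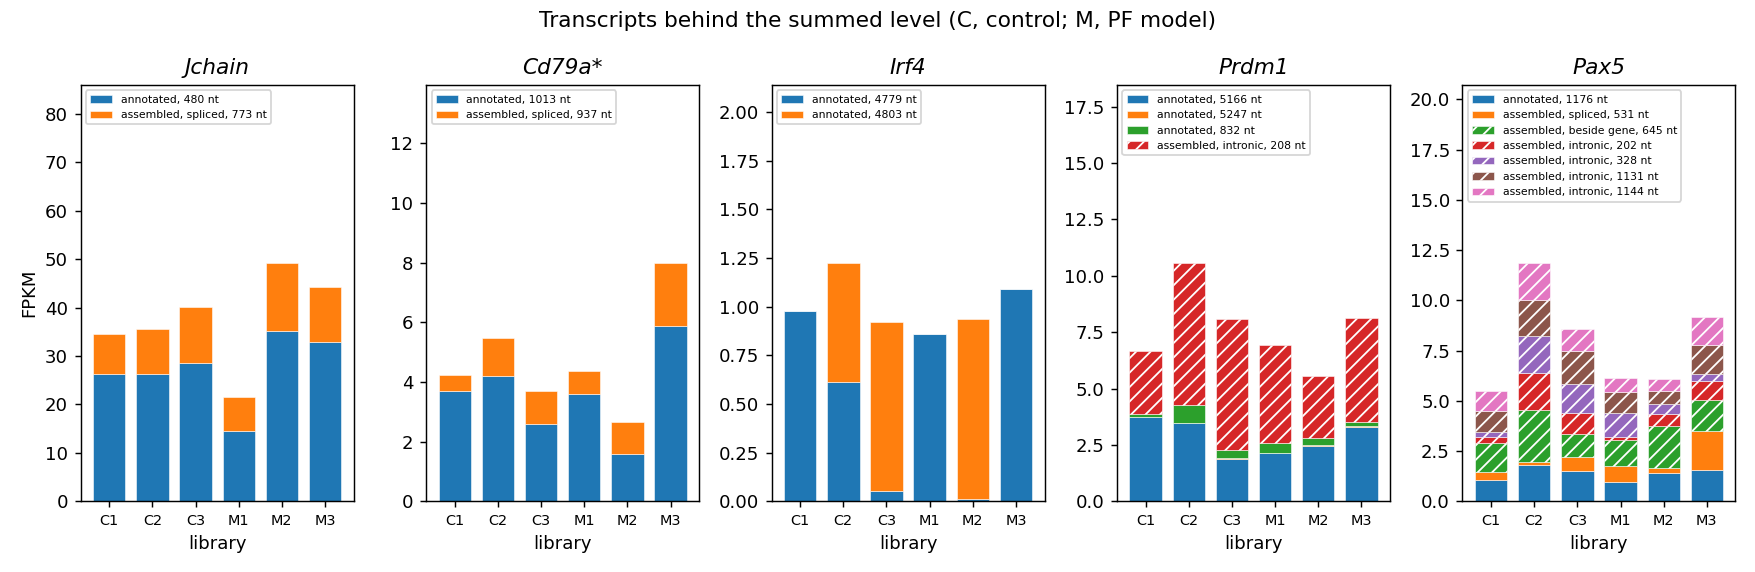
FPKM of each transcript (stacked, coloured by transcript, hatched where the row is unspliced and intronic or beside the gene) in the 3 control (C) and 3 PF model (M) libraries for Jchain, Cd79a, Irf4, Prdm1 and Pax5. The isoforms of Irf4 replace each other between libraries of both groups, and intronic fragments make up 38.3% to 61.5% of Pax5 and 42.2% to 72.1% of Prdm1.

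Jchain, the joining chain that links IgA and IgM into polymers, was the highest member by far. It gave 34.4, 35.6 and 40.1 FPKM in control and 21.5, 49.1 and 44.3 FPKM in PF model libraries. The 3 controls lay within 1.17-fold of each other, whereas PF model replicate 1 lay below them and PF model replicates 2 and 3 above them. The means of 36.7 ± 3.01 and 38.3 ± 14.7 (SD, n = 3 each) differed by −0.021 (SE 0.30, limma adjusted p = 0.999). This value rested on 1 library: without PF model replicate 1 it was 0.34 and passed an unadjusted p of 0.05 (limma adjusted p = 0.924), and without PF model replicate 2 it was −0.24. The annotated transcript (480 nt, chromosome 14, 21177237 to 21183542, plus strand) held 67.6% to 76.3% of the sum. The rest was an assembled isoform of 773 nt that starts upstream, at 21155835, whose share was 26.3% ± 2.64 in control and 28.8% ± 3.35 in PF model libraries (SD, n = 3 each, exact permutation p = 0.5, two-sided).

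Mzb1, a chaperone of the endoplasmic reticulum in marginal zone B cells and plasma cells, had 1.07, 2.73 and 1.48 FPKM in control and 1.89, 1.996 and 2.67 FPKM in PF model libraries from 1 transcript of 4 exons (chromosome 18, 28436548 to 28438654, minus strand). Both ends of the range were controls, 2.56-fold apart. The means of 1.76 ± 0.864 and 2.19 ± 0.423 (SD, n = 3 each) differed by 0.24 (SE 0.24, limma adjusted p = 0.934), the highest of the 8. Without control replicate 2, the highest library, the difference was 0.48 and passed an unadjusted p of 0.05 (limma adjusted p = 0.945575), and without control replicate 1, the lowest, it was 0.059.

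**Figure D3:**
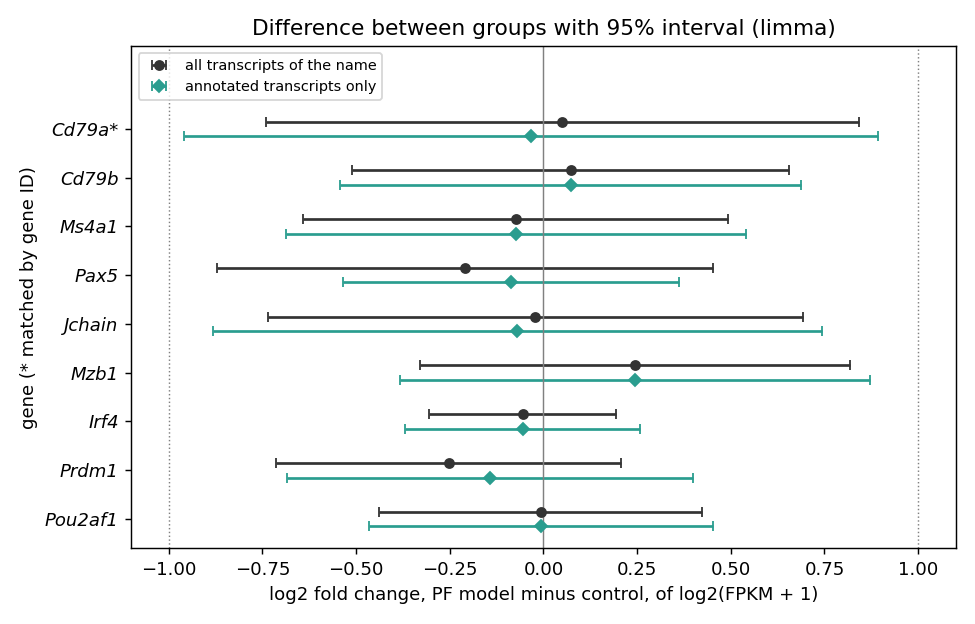
Difference between the groups (PF model minus control on the log2(FPKM + 1) scale, points) with 95% intervals from limma (bars) for each gene, from all transcripts of the name (circles) and from annotated transcripts only (diamonds). Each interval holds 0, and none reaches the dotted lines at a difference of 1 in either direction.

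Per kilobase, the annotated transcripts put the genes in the order Jchain (mean of 6 libraries 27.3 FPKM), Cd79b (3.87), Cd79a (3.59), Prdm1 (3.22), Pou2af1 (2.71), Ms4a1 (2.24), Mzb1 (1.97), Pax5 (1.39) and Irf4 (1.002). Jchain was above 96.8% of the tested genes and Irf4 above 41.0%. The ranges of neighbours in this order overlapped except for Jchain, whose lowest library (14.6) stood above the highest of Cd79b (5.29). Summed over all transcripts of the name, the spread inside at least 1 group exceeded the difference between groups for every gene. The fold of means lay between 0.815 for Prdm1 and 1.24 for Mzb1. The coefficient of variation in the PF model group was 54.2% for Cd79a, 38.5% for Ms4a1 and 38.4% for Jchain. In the control group it reached 49.1% for Mzb1.

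The libraries differed from each other in both groups. Control replicate 1 was the lowest of the 6 for 4 of the 8 members and PF model replicate 1 for 3, where each is the lowest for 15.6% and 14.1% of all genes tested. Control replicate 2 was the highest for 5 of the 8, against 13.1% of genes. Among 25 other B cell genes, control replicate 1 was the lowest for 11, and among 11 T cell markers for 10. The T cell markers, from their spliced transcripts, summed to 27.9 FPKM in control replicate 1 and to 49.0 and 50.9 FPKM in the other 2 controls, beside 36.0 to 44.9 FPKM in the PF model group. The part of these differences in the members' values was not tested beyond leaving out each library. Without control replicate 1 the median difference of the 8 members was −0.12 with 1 higher and 7 lower, and without PF model replicate 1 it was 0.025 with 4 higher and 4 lower. Without control replicate 2 it was 0.016 with 5 higher and 3 lower, and without PF model replicate 3 it was −0.14 with 1 higher and 7 lower. The blood cell gene Hbb ranged from 211.872 to 574.690 FPKM in control and from 230.241 to 575.762 FPKM in PF model libraries. Control replicate 1 was its lowest library. PF model replicate 3 had 230.241 FPKM of Hbb. That library was the lowest for 0 of the 8 members and 0 of the 11 T cell markers, and for 19.7% of all genes tested. Whether blood content had a part in these differences was not tested.

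**Figure D4:**
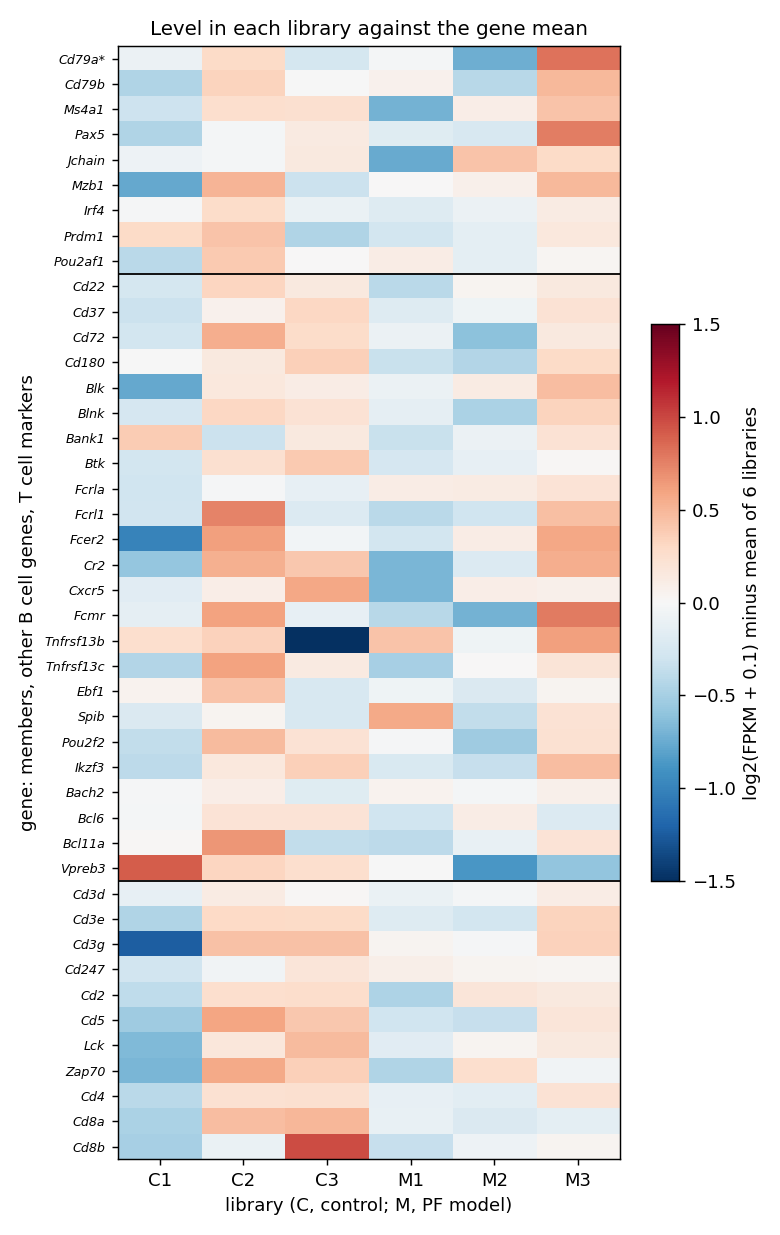
Level of the members, the other B cell genes except 1 and the T cell markers (rows, annotated and spliced assembled transcripts) in each library (columns; C, control; M, PF model), as log2(FPKM + 0.1) minus the mean of the 6 libraries (colour). Blue is below and red above the gene's mean; 10 of 11 T cell markers are lowest in control replicate 1, and no member separates the 3 control from the 3 PF model columns.

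A list of other B cell genes held 26 names, 25 of them in the table and all 25 tested. With limma, 0 rose and 1 fell at an unadjusted p of at most 0.05, beside 4.91% of all genes tested. The median difference was −0.085, and 2 of 25 had groups that did not overlap, beside 10.7% of all genes tested. The gene that passed was Vpreb3, a surrogate light chain relative kept in some mature B cells, at 1.06, 0.676 and 0.635 FPKM in control and 0.515, 0.238 and 0.31 FPKM in PF model libraries. Its difference was −0.40 (SE 0.12, limma p = 0.0167, adjusted p = 0.933, exact permutation p = 0.1) and rested on 3.37 to 15.8 estimated reads per library, and without PF model replicate 2 it was −0.34 and no longer passed. The other with separate groups was Fcrla, named here after its values were seen, at 2.36 to 2.87 and 3.16 to 3.38 FPKM (limma adjusted p = 0.933). Ebf1, an early B cell factor also made by stromal and fat cells, was among the highest of the list at 25.3 to 26.2 FPKM in the PF model and 21.9 to 30.1 FPKM in the control group, of which its spliced transcripts held 3.54 to 5.65 FPKM. Ikzf3 (Aiolos) had a name sum of 1671 and 1615 FPKM in PF model replicates 2 and 3 and 8.54 to 13.9 FPKM elsewhere. That sum came from an assembled transcript on the opposite strand, while the annotated Ikzf3 transcript had 3.51 to 5.96 FPKM in control and 3.64 to 6.43 FPKM in PF model libraries. Whether the reads were assigned by strand is not given in the sources used here.

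Of 17 tested genes of the plasma cell list, 1 rose and 0 fell at an unadjusted p of at most 0.05, beside 4.91% of all genes tested. The median difference was 0.047, and 2 of 17 had groups that did not overlap, beside 10.7% of all genes tested. The gene that rose was Tnfrsf17, which encodes BCMA, the survival receptor of plasma cells. It had 0.194, 0.124 and 0.145 FPKM in control and 0.298, 0.473 and 0.53 FPKM in PF model libraries, so that all PF model libraries stood above all controls. The difference was 0.31 (SE 0.08, limma p = 0.00644, adjusted p = 0.933, exact permutation p = 0.1), the ratio of means 1.49 on the log2 scale, and the estimated reads 5.10 to 23.6 per library. It passed with each library left out in turn, at differences of 0.26 to 0.38. The gene was called in an earlier analysis of these libraries, so its direction is no independent evidence. The study also measured Tnfrsf17 by qRT-PCR, on the same RNA as was sequenced, and reported a similar pattern. Ssr4, a subunit of the translocon-associated complex named after its values were seen, also had separate groups, at 14.4 to 18.4 and 18.9 to 19.8 FPKM (limma adjusted p = 0.933). Xbp1 and Hsp90b1, secretory pathway genes made by many lung cells, gave 37.8 to 48.9 and 47.3 to 58.3 FPKM over the 6 libraries, with differences of −0.0074 (SE 0.13) and −0.073 (SE 0.10).

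Of the genes that pass on the signal of the B cell receptor, 0 of 14 passed the unadjusted p in either direction (median difference −0.094). The highest were Cd81, a membrane protein found on most cells, at 113.397 to 142.489 FPKM, and the kinase Lyn at 78.7 to 88.0 FPKM. Of the cues that attract B cells or keep them alive, 0 of 9 passed. The lymphoid chemokine Ccl21 was at 12.2 to 24.0 FPKM and Tnfsf13, which encodes the BCMA ligand APRIL, at 12.3 to 16.4 FPKM. Il6 and Madcam1 were each listed at 0 in 5 libraries. In the antibody transport and Fc receptor list, 1 of 7 rose and 0 fell at the unadjusted p, beside 4.91% of all genes tested. The gene that rose was Fcgrt, the neonatal Fc receptor that protects IgG from breakdown. It was at 20.5, 21.9 and 18.1 FPKM in control and 25.1, 24.6 and 24.6 FPKM in PF model libraries (difference 0.29, SE 0.09, limma p = 0.0147, adjusted p = 0.933, exact permutation p = 0.1). With annotated transcripts alone the Fcgrt difference was 0.23 (SE 0.16) and no longer passed. Pigr, the epithelial receptor that carries Jchain-bound IgA and IgM into the airway, had 75.7, 62.0 and 67.8 FPKM in control and 88.7, 72.3 and 113.007 FPKM in PF model libraries, a difference of 0.39 (SE 0.17, limma adjusted p = 0.933). Fcer1g, the shared Fc receptor gamma chain, was at 33.7 to 44.7 FPKM.

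Lists of other cells were read the same way. Of the T cell markers, 0 of 11 passed the unadjusted p (median difference −0.065), with Cd4 at 9.97 to 15.6 FPKM and Cd247 at 4.20 to 9.87 FPKM. Of the macrophage markers, 0 of 9 passed (median 0.033). Csf1r was at 24.1 to 30.4 FPKM, and Cd68 was at 20.7 to 22.8 FPKM in 4 libraries and at 1.30 and 1.21 FPKM in control replicate 3 and PF model replicate 2. Plasmacytoid dendritic cells share Irf4, Spib and Mzb1 with the B lineage. At the unadjusted p, 1 of 8 of their markers was higher and 1 lower, beside 4.91% of all genes tested. Bst2 was at 52.1, 41.1 and 60.2 FPKM in control and 32.7, 42.7 and 37.4 FPKM in PF model libraries (limma p = 0.0365, adjusted p = 0.933, exact permutation p = 0.2). Its ratio of means, −0.44 on the log2 scale, did not reach the fold needed for a call. Bst2 still passed the unadjusted p only without control replicate 2 (difference −0.57) or PF model replicate 2 (−0.52), not without any of the other 4 libraries (−0.30 to −0.43). The Bst2 difference turned to 0.59 with annotated transcripts alone, so its direction depends on which transcripts are summed. Bst2 also no longer passed the unadjusted p with TPM (−0.35) or with a replicate block (−0.43). Tcf4, their lineage factor but also made by many other cells, was at 62.3 to 72.6 FPKM. The summed level of Siglech, their defining lectin, passed (limma p = 0.0429, exact permutation p = 0.2) through an intronic fragment listed at 2.93 and 3.24 FPKM in PF model replicates 1 and 3 and at 0 elsewhere, while its annotated transcript was at most 0.154 FPKM. Without PF model replicate 2 the Siglech difference rose from 1.32 to 1.97 (limma adjusted p = 0.042), and without any other library it no longer passed. With annotated transcripts alone it was 0.0023. Of precursor and thymus genes, 0 of 2 tested passed, and Rag1, Rag2, Dntt and Ptcra were each listed at no more than 0.128 FPKM and Vpreb1 at no more than 0.196 FPKM. Of lymph node stroma genes 0 of 3 passed, of lung tissue markers 0 of 5 and of blood cell markers 0 of 3, with Clu at 67.3 to 104.729 FPKM and Alas2 at 5.07 to 8.17 FPKM.

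Among antibody genes, Igh-6 spread more widely between libraries than any member. By name the table holds Igh-6, the IgM heavy chain constant gene, and Ighg1, an IgG heavy chain constant gene, both on chromosome 6. Another name that fitted the search, Iglon5, is not an antibody gene and was left out. The annotated Igh-6 transcript had 5.92, 11.9 and 24.8 FPKM in control and 5.69, 53.2 and 13.1 FPKM in PF model libraries. Control replicate 1 and PF model replicate 1 were close at the low end, and PF model replicate 2 was the highest. Over all rows of the name the difference was 0.20 (SE 0.86, limma adjusted p = 0.993). Ighg1 had 0.771, 1.70 and 1.87 FPKM in control and 0.931, 0.834 and 1.52 FPKM in PF model libraries, a difference of −0.21 (SE 0.22, limma adjusted p = 0.942). The lambda-2 light chain constant gene, chosen after the table had been read, had 13.7, 22.0 and 22.0 FPKM in control and 15.2, 42.1 and 21.4 FPKM in PF model libraries. Over the 89 annotated transcripts that the table assigns to the immunoglobulin complex, 86 of them on chromosome 6, a set also chosen after the table had been read, the sums were 73.0, 97.5 and 126.182 FPKM in control and 64.1, 179.714 and 121.102 FPKM in PF model libraries. The lowest sum was in PF model replicate 1, which was also lowest for Jchain, Ms4a1 and Irf4, and the highest in PF model replicate 2, which was highest for Jchain. V gene segments share sequence, so reads may be split among them and each single segment is uncertain.

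**Figure D5:**
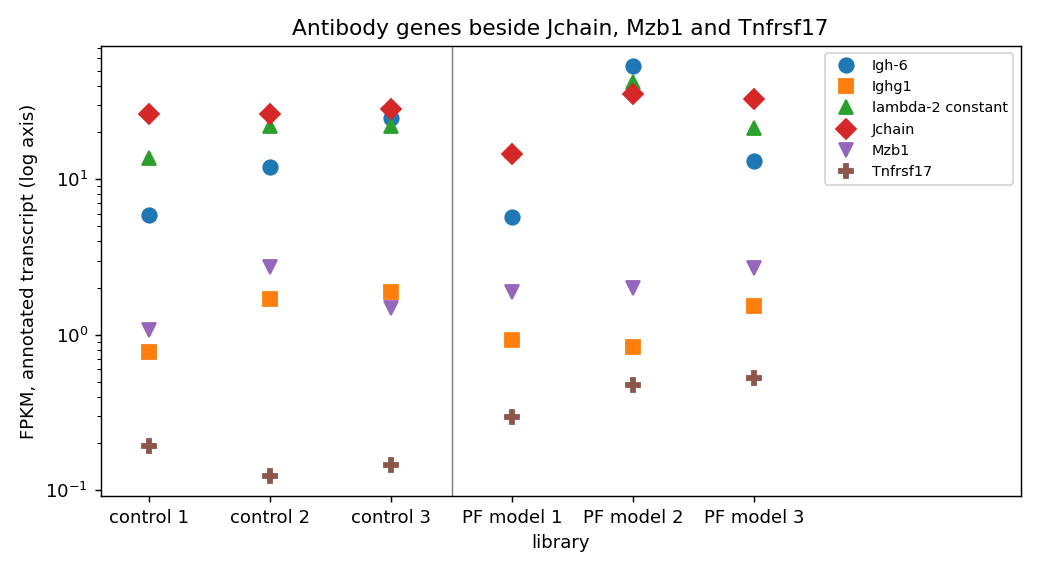
FPKM (log axis) of the annotated transcripts of Igh-6, Ighg1, the lambda-2 constant gene, Jchain, Mzb1 and Tnfrsf17 in each library, with control left and PF model right of the line. Igh-6 spans 5.69 to 53.2 FPKM with both ends in the PF model group. Tnfrsf17 is the only one of the 6 whose groups do not overlap, beside 10.7% of all genes tested. It rests on 5.10 to 23.6 estimated reads per library.

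The genes whose log2 levels were most like those of Cd79a over the 6 libraries were Rpl23 (Pearson r = 0.987), Cd40 (r = 0.986), Sall2 (r = 0.985), Nono (r = 0.983) and LOC100362830 (r = 0.981), among 14311 genes with a mean of at least 1 FPKM. Cd40, the B cell receptor for T cell help, had 7.02 to 8.01 FPKM in control and 6.64 to 8.65 FPKM in PF model libraries. For Jchain they were Brwd1 (r = 0.992), AABR07003304.2 (r = 0.980), AABR07027447.1 (r = 0.979), Fam213a (r = 0.979) and Arih2 (r = 0.978). With 6 points that share their libraries such values are common: 1.40% of these genes exceeded r = 0.9 with Cd79a and 0.503% with Jchain. Among the members, Cd79b was the most like Cd79a (r = 0.844) and Ms4a1 the most like Jchain (r = 0.834), while Cd79a and Jchain had r = −0.072.

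No circular RNA had a member as its host gene, among 5216 circular RNAs with between 2037 and 2964 back-splice reads per library. Of the other B cell genes, Bank1 hosted 3 circular RNAs with 4 reads over the 6 libraries and Cr2 hosted 1 with 8 reads, counts too low to compare the groups.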

How the data were processed

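Reads were trimmed with Cutadapt and mapped with Bowtie2 and Tophat2, and the submitters' processing notes name HISAT2. The authors assembled transcripts with StringTie and deposited FPKM and coverage (a signal per base, not scaled to library size) for each one. The genome build is not given in the sources used here. For circular RNAs, found with Tophat-fusion and CIRCexplorer, the deposited table holds unscaled counts of back-splice reads and a scaled signal, which was not used here. All 24 measurement columns were assigned to a sample and 0 were not.

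FPKM were summed over the transcripts of each gene name, leaving out 10494 rows without a name. Genes above 0 FPKM in at least 3 of 6 samples entered a limma 3.58.1 fit (trend, two-sided; R 4.3.3) on log2(FPKM + 1), since FPKM are not counts. Calls used the study's thresholds: an unadjusted p no higher than 0.05 together with mean FPKM that differ by 1 log2 unit or more. P-values were adjusted over all 19645 genes, and exact permutation tests stood beside them. Replicates were separate rats with 1 library each. The members, the gene lists and the tests were chosen with earlier results of these data known. Besides the members and Tnfrsf17, the text names the 2 genes of highest mean FPKM in each list, up to 4 per list with p of at most 0.05, and the 5 genes most like Cd79a and Jchain. Fcrla, Ssr4, Il6, Madcam1, Rag1, Rag2, Dntt, Sftpb, Sftpa1, Ager, Cd79al, the lambda-2 constant gene, Bank1 and Cr2 were named after their values were seen. Of the other B cell genes, 1 is not reported here by itself. Estimated reads carry counting error besides the spread between rats.

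Alternatives were a pseudocount of 0.1, other filters, a sum weighted by length, annotated transcripts only, TPM with and without small RNA rows, median ratio scaling, other limma settings, inclusion of unnamed loci, the replicate number as a block, and omission of single samples. A sum over annotated and spliced assembled transcripts was added after the data were seen. The fit was tested on simulated data. Python 3.11.15, pandas 2.3.3, numpy 2.4.6, scipy 1.17.1 and matplotlib 3.10.9 were used.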

Additional observations from a re-analysis of the deposited data

How the results depend on the processing

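None of the 8 members and not Cd79a reached an unadjusted p of 0.05 under the 13 alternatives that kept all libraries (117 values, limma). Of these values 111 kept their sign. Those that turned lay near 0 except that of Pax5, and the cause was not tested. With TPM, Jchain was 0.061 and Pou2af1 0.066, and with TPM without small RNA rows 0.030 and 0.048. The annotated transcripts gave −0.033 for Cd79a. Pax5 went from −0.21 to 0.17 with annotated and spliced assembled transcripts, chosen after seeing the data. Of single transcripts, the fragment beside Pax5 was 0.055 and 0.036, and Pou2af1 0.066 and 0.048, with TPM with and without small RNA rows, and the annotated Jchain transcript 0.011 with TPM. Leaving out single libraries gave 0 to 1 members at p of at most 0.05 (Mzb1 without control replicate 2, Jchain without PF model replicate 1). The differences then ranged from −0.11 to 0.26 for Cd79b, −0.29 to 0.36 for Cd79a, −0.25 to 0.15 for Ms4a1, −0.47 to 0.025 for Pax5, −0.16 to 0.14 for Pou2af1, −0.10 to 0.0074 for Irf4, −0.24 to 0.34 for Jchain, −0.39 to −0.097 for Prdm1 and 0.059 to 0.48 for Mzb1. For single transcripts they ranged from −0.17 to 0.20 for the fragment beside Pax5, −0.21 to 0.020 for annotated Pax5, −0.094 to 0.36 for assembled and −0.29 to 0.32 for annotated Jchain, −0.18 to 0.40 for the first Irf4 isoform, and −0.35 to 0.010 and −0.24 to 0.10 for the Prdm1 isoforms of 7 and 4 exons. Over all genes, 298 passed p and fold (130 higher, 168 lower), against 84 with mean FPKM of at least 1, 519 with annotated transcripts and 614 with all loci; with TPM, 196 were higher and 141 lower. At p of at most 0.05, 965 genes passed, against 573 with TPM without small RNA rows. By adjusted p, 2 genes passed, against 7 with annotated transcripts, 5 with all loci and 1 to 4 without single libraries. Over all genes, 955 passed p of at most 0.05 with TPM, and the median difference was 0.048, beside −0.0072 in the main fit. By that p the list counts with TPM were 2 for other B cell genes, 4 for plasma cell genes, 1 for receptor signalling, 2 for antibody transport, 1 for macrophages and 1 for plasmacytoid dendritic cells. Without single libraries they were 1 to 3 (3 without PF model replicate 1, 2 without control replicate 1), 1 to 2 (2 without control replicate 1 or 3), 0 to 1, 1 to 2 (2 without PF model replicate 2 or 3), 0 to 1 (1 without control replicate 1) and 0 to 2, and for T cell markers 0 to 3 (3 without control replicate 1), precursor genes 0 to 1 and lymph node stroma 0 to 1. Same-numbered libraries did not deviate together by this correlation (r of −0.078 to 0.065, 3 of 6 closest to their own number). Whether the numbers pair libraries for some of the genes was not tested. A replicate block gave 0 genes by adjusted p, 312 by p and fold and 881 at p of at most 0.05, and 0 members by either.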
